A study of Mus musculus with 60 samples.

Results

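Oxidative phosphorylation subunits, the nuclear-encoded proteins that build the 5 complexes of the mitochondrial respiratory chain and ATP synthase, were followed across 6 strains of undifferentiated mouse embryonal carcinoma cells. They were taken by gene symbol alone (symbols beginning Ndufa, Ndufb, Ndufc, Ndufs or Ndufv with a number, Sdha to Sdhd, Uqcr, Cox4 to Cox8, and Atp5), from probe sets that the platform annotation gives a single symbol. This named 81 genes on 164 probe sets, of 18193 genes on 35041 probe sets in all. The symbols leave out the subunits encoded by mitochondrial DNA, cytochrome c1 (Cyc1) and Ndufab1. Of the 81 genes, 33 belong to complex I, 4 to complex II, 8 to complex III, 19 to complex IV and 17 to complex V.

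In respiring cells, complexes I and II pass electrons from NADH and succinate to ubiquinone, complex III passes them to cytochrome c, and complex IV hands them to oxygen. Complexes I, III and IV pump protons, and complex V lets them back through a rotating ring to make ATP. Each complex joins a catalytic core to further subunits, many of them small accessory ones. Some complex IV subunits have separate isoforms for heart, muscle, lung or testis. Pluripotent stem cells are known for leaning on glycolysis while keeping a working respiratory chain.

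The strains were P19, a line of C3H male mouse embryonal carcinoma cells, P19CL6, which was derived from it, and 4 further lines obtained from P19CL6 (CL6G26, CL6G36, CL6G45, CL6G52), called sublines here. All were kept undifferentiated in alpha-MEM with fetal calf serum, with no other treatment named. Each strain is represented by 5 biological replicates, each hybridised to both arrays of an Affymetrix pair, MOE430A and MOE430B, which gives 60 arrays. Nothing in the labels ties a replicate to a culture of its own, so p-values here measure only the spread between samples, which may be technical. Each line stands for itself alone. Values are log2 signals after quantile normalization within an array type. A gene was read from its brightest tested probe set, on MOE430A where it had one there. A gene was tested if that probe set lay above a floor, log2 4.616 on MOE430A and 4.141 on MOE430B, on at least 5 of 30 arrays. A gene is called changed at an adjusted p under 0.05 in limma, with Benjamini-Hochberg adjustment over all probe sets tested.

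Of the 81 genes, 79 were tested, among 13181 genes in all, and 73 lay above the floor on all 30 arrays. The isoforms Cox8b (heart and muscle) and Cox7b2 never reached the floor often enough and were not tested. A further 6 were under the floor on some arrays: Cox4i2, Cox6a2, Cox7a1, Cox7c, Ndufa4l2 and Ndufb4. The Cox7c probe set lay above it on 5 arrays, and the values of Ndufb4 and Ndufa4l2 come from MOE430B. Fewer cells of a kind and less RNA per cell cannot be told apart in these bulk samples.

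All 10 pluripotency markers examined were tested in these cells, 8 of them above the floor on every array, and their summed signals overlapped between strains, from 9072 to 10801. Single pluripotency markers did differ: 1 was called higher and 2 lower in CL6G36 against P19CL6, where 9 of 10 had an unadjusted p under 0.05. Likewise 1 was higher and 2 lower in CL6G45, where 3 did. In CL6G52 2 were called lower, and in P19CL6 against P19 1 was lower, by 2-fold or more. CL6G36 had 1 higher and 3 lower than CL6G26, and CL6G45 had 2 higher and 1 lower than CL6G52. The F test across the sublines called 4 of 10. In CL6G36 and in CL6G45 against P19CL6, 1 called pluripotency marker differed by 2-fold or more. The same held for CL6G36 against CL6G26 and for the span in the F test. Of 9 endoderm markers 4 were tested (Sox17, Sox7, Afp, Ttr and Lama1 were not), and their summed signal was 196 to 305 in P19, 195 to 291 in P19CL6, 210 to 280 in CL6G26, 121 to 149 in CL6G36, 116 to 148 in CL6G45 and 131 to 191 in CL6G52. Against P19CL6, 2 of these 4 were called lower in CL6G36, 2 in CL6G45 and 1 in CL6G52. In each of these 1 fell by 2-fold or more. Of 10 mesoderm and muscle markers 5 were tested (Myh6, Myh7, Actn2, Mef2c and Myog were not), with sums of 170 to 273 in P19, 189 to 321 in P19CL6, 175 to 212 in CL6G26, 102 to 152 in CL6G36, 133 to 154 in CL6G45 and 132 to 170 in CL6G52. Against P19CL6, 1 of these 5 was called lower, by 2-fold or more, in each of CL6G36, CL6G45 and CL6G52. Of 8 neural markers 3 were tested and none was called in P19CL6 against P19 or in a subline against P19CL6, with at most 1 at an unadjusted p under 0.05. The F test across the sublines called 2 of these 3, and CL6G36 had 1 higher and 1 lower than CL6G26. In each of these comparisons 1 called neural marker differed by 2-fold or more. Of 8 fibroblast markers 4 were tested, with sums of 89 to 203 in P19 and 75 to 128 in P19CL6. All 4 were lower in P19CL6 than in P19 (median -0.61, 1 called), and none was called in the sublines against P19CL6, with at most 1 at an unadjusted p under 0.05. The part of these markers in the results below was not tested. Some samples stood apart. On MOE430A, P19 replicates 4 and 5 resembled P19CL6 (correlation of deviations 0.404 and 0.296) more than the other P19 samples (0.114 and 0.076). CL6G52 replicate 1 resembled CL6G45 (0.334) and not its own group (-0.127). Counts of members called in comparisons that use these samples are given with and without them.

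The subunit genes moved little. No member changed by 2-fold or more with a call against P19CL6, or between P19CL6 and P19. Across the 6 strain means, the SD of a gene ran from 0.03 for Ndufa7 to 0.40 for Ndufb4 in complex I, from 0.08 for Sdhb to 0.18 for Sdhd in complex II, and from 0.08 for Uqcrfs1, the Rieske iron-sulphur protein, to 0.27 for Uqcrh, the hinge protein, in complex III. It ran from 0.05 for Cox6a1 to 1.01 for Ndufa4l2 in complex IV and from 0.05 for Atp5h, a peripheral stalk subunit, to 0.41 for Atp5g1 in complex V. Ndufb4 and Ndufa4l2 are both among the 6 genes under the floor on some arrays.

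Sublines CL6G36 and CL6G45 differed from their parent P19CL6 in both directions, with more members lower than higher. Ndufb3 of complex I, Uqcr11 of complex III, Cox7a2 and Cox6b1 of complex IV and Atp5g3 of complex V were lower in both, and Ndufv3 of complex I was higher in both. Of the 6 members higher in CL6G36, 4 were core subunits as grouped below. In CL6G36, 14 members fell and 6 rose, so that 20 of 79 (25.3%) were called, where 13.5% of all genes tested were called (6.72% lower and 6.83% higher). In CL6G45, 21 members fell and 4 rose, so that 25 of 79 (31.6%) were called, against 13.3% of all genes (6.71% lower and 6.55% higher). The median change over the members was -0.06 in CL6G36 and -0.05 in CL6G45, with 0.00 over all genes in both. The 5 samples of each strain did not overlap for 17 members in CL6G36 and 19 in CL6G45, where 12.3% and 13.7% of all genes were so separated. Both comparisons use the same P19CL6 samples.

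These counts depend on how arrays are scaled. With each array set to the same median instead, 3 members rose and 16 fell in CL6G36, where 11.8% of all genes were called. In CL6G45 0 rose and 27 fell, where 12.4% were. With the deposited scaling, 0 of 79 rose in both sublines. There 3 fell in CL6G36 and 2 in CL6G45, where 2.50% and 2.92% of all genes were called. In CL6G45 the share of members called was then under that of all genes. The 21 members that fell in CL6G45 had a negative change and the 4 that rose a positive one under every alternative tried, and in CL6G36 Sdha was the only called member to change sign.

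**Figure D1:**
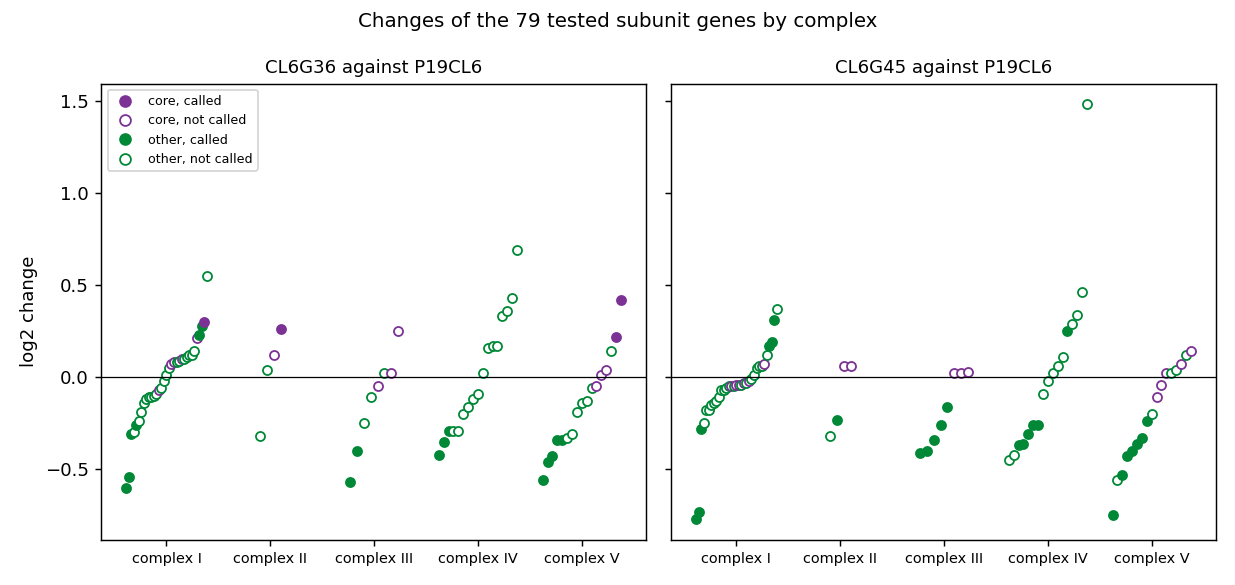
Log2 change of each tested subunit gene in CL6G36 (left) and CL6G45 (right) against P19CL6, ordered within complexes I to V; purple marks the 16 core subunits, green the others, and filled points are called. Filled green points lie mostly below 0, and filled purple points appear only above 0 in CL6G36.

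Grouped by role, core here means Ndufs1, Ndufs3, Ndufs7, Ndufs8, Ndufv1, Ndufv2, Sdha, Sdhb, Uqcrc1, Uqcrc2, Uqcrfs1, Atp5a1, Atp5b, Atp5c1, Atp5d and Atp5e. Sdhc, Sdhd and the Atp5g genes were counted as others. Atp5g1 and Atp5g3 fell in both sublines, so the counts by role depend on this choice. The 16 core subunits tested were 4 higher and 0 lower in CL6G36, with a median change of 0.09. The 63 others were 2 higher and 14 lower, with a median of -0.11. In CL6G45 no core subunit was called (1 of 16 had an unadjusted p under 0.05), the core median was 0.02, and the others were 4 higher and 21 lower with a median of -0.13. Averaged in each sample, the core subunits of CL6G36 lay 0.16, 0.12, 0.17, 0.10 and 0.08 above the mean of all 30 arrays on the log2 scale, and those of P19CL6 at -0.02, 0.00, 0.01, -0.04 and 0.07. All 5 CL6G36 samples were above all 5 of P19CL6. The other subunits spanned -0.04 to 0.14 in P19CL6. CL6G45, at -0.15 to -0.07, lay wholly below its parent, and CL6G36, at -0.12 to 0.02, overlapped it. Of the core subunits that rose in CL6G36, Atp5a1, Ndufv1 and Sdha had further probe sets, none of which was called, and Atp5b had no other. The direction of the core subunits depended on the scaling: 13 of 16 had a positive change in CL6G36, 10 with median or deposited scaling, and in CL6G45 9 of 16 did, 0 with median scaling and 11 with the deposited one. This grouping was made after the values were seen and carries no test.

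**Figure D2:**
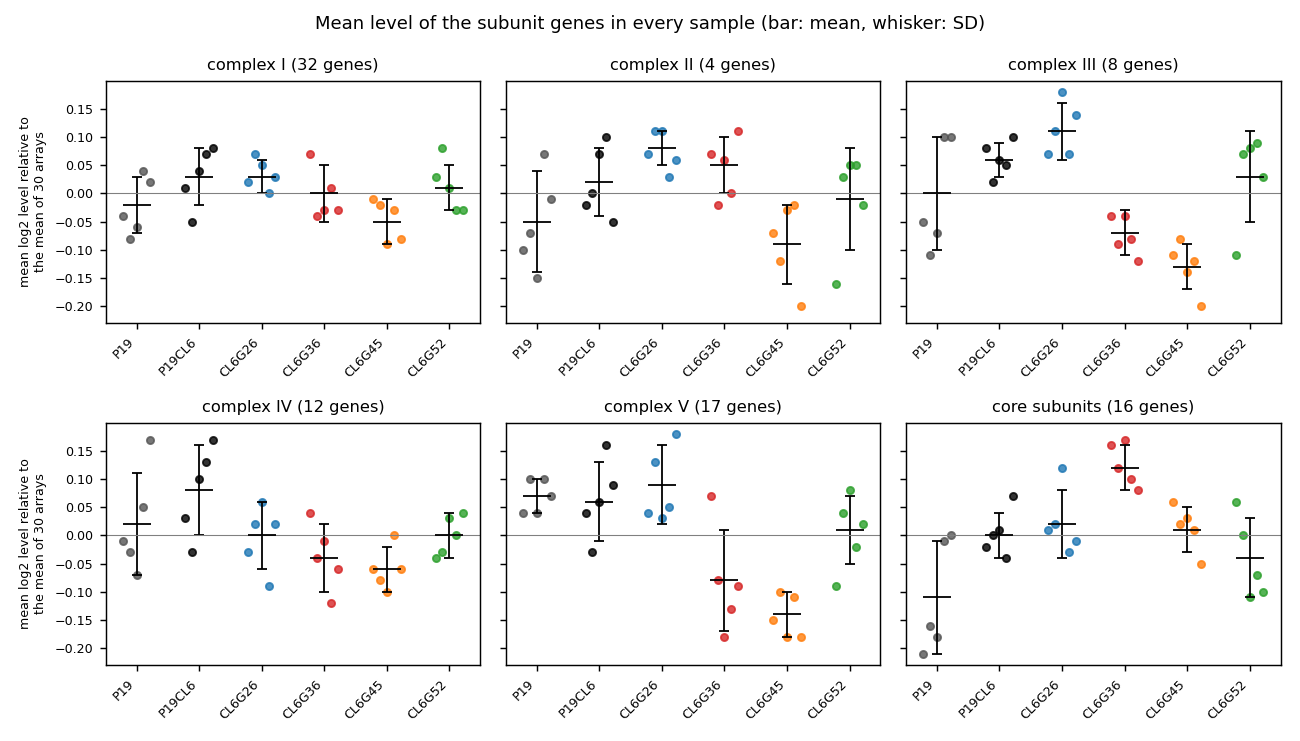
Mean log2 level of the subunit genes in every sample, relative to the mean of the 30 arrays, for each complex and for the core subunits (genes above the floor on all arrays); bars are means and whiskers SD of 5 samples. Complexes III and V sit lowest in CL6G36 and CL6G45, and the core subunits sit highest in CL6G36.

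Complex I, the NADH dehydrogenase, had 4 lower and 3 higher members of 33 in CL6G36 and 3 lower and 3 higher in CL6G45. The shares called were 21.2% and 18.2%, where 13.5% and 13.3% of all genes were called. Ndufb3, an accessory subunit of the membrane arm, read 9.22, 8.90, 9.11, 9.23 and 9.21 in the 5 P19CL6 samples. It read 8.75, 8.47, 8.65, 8.62 and 8.49 in CL6G36, and 8.42, 8.46, 8.26, 8.43 and 8.43 in CL6G45. Both sublines lay below every P19CL6 sample. Ndufb3 fell by 0.54 ± 0.08 (SE, n = 5 against 5; adjusted p = 7.47e-06) in CL6G36 and by 0.73 ± 0.08 (adjusted p = 7.39e-08) in CL6G45. The remaining strains averaged 9.01 ± 0.13 in P19 (SD, n = 5), 9.19 ± 0.07 in CL6G26 and 8.96 ± 0.13 in CL6G52.

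Ndufa5, an accessory subunit, fell by 0.60 ± 0.13 in CL6G36 (adjusted p = 0.00128) and by 0.77 ± 0.13 in CL6G45 (adjusted p = 8.34e-05), from samples at 8.01, 7.69, 7.89, 8.21 and 7.97 in P19CL6 to 6.95 to 7.53 and 6.83 to 7.46. A second Ndufa5 probe set fell by 0.52 and 0.64. Ndufb7 fell in both sublines, by 0.26 and 0.28, and Ndufa12 fell by 0.31 in CL6G36. The other Ndufa12 probe sets measured on all arrays changed there by -0.06 ± 0.08 and -0.20 ± 0.11 and were not called.

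Higher in complex I was Ndufv3, an accessory subunit, which read 10.19, 10.18, 10.17, 10.17 and 10.26 in P19CL6, 10.45, 10.37, 10.58, 10.37 and 10.37 in CL6G36 and 10.58, 10.48, 10.42, 10.59 and 10.48 in CL6G45. No sample of either subline reached down to a P19CL6 sample. The rise was 0.23 ± 0.07 in CL6G36 (adjusted p = 0.0239) and 0.31 ± 0.07 in CL6G45 (adjusted p = 0.00286). Ndufv1, the core subunit that binds NADH and the flavin, rose by 0.30 ± 0.08 in CL6G36 (adjusted p = 0.00563), from 9.24 to 9.37 in P19CL6 to 9.45 to 9.91. Its other probe sets, both above the floor on all arrays, changed by 0.04 ± 0.06 and 0.04 ± 0.08 and were not called. Ndufa8, an accessory subunit, rose by 0.28 ± 0.07 in CL6G36 (adjusted p = 0.00273). In CL6G45 the accessory subunits Ndufb11 and Ndufa1 rose by 0.19 ± 0.06 (adjusted p = 0.0184) and 0.17 ± 0.06 (adjusted p = 0.0398). The other Ndufb11 probe sets changed by 0.01 ± 0.10 and -0.03 ± 0.07, so its rise was seen by 1 probe set only. The Ndufa1 samples overlapped with P19CL6, and its call was lost under 13 of 21 alternatives, with adjusted p from 0.0210 to 0.758.

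Complex II, succinate dehydrogenase, also serves the citric acid cycle. Sdha, the flavoprotein subunit, read 9.43, 9.49, 9.45, 9.51 and 9.35 in P19CL6 and 9.67, 9.71, 9.86, 9.58 and 9.72 in CL6G36, where it rose by 0.26 ± 0.08 (adjusted p = 0.0203). A second Sdha probe set measured on all arrays changed by -0.10 ± 0.09, so the rise was seen by 1 probe set only, and read on MOE430B the change was -0.32. The call was lost under 6 of 21 alternatives, with adjusted p from 0.00520 to 0.924. Sdhc, a membrane anchor, fell by 0.23 ± 0.08 in CL6G45 (adjusted p = 0.0369), a call lost under 8 of 21 alternatives, with adjusted p from 0.0177 to 0.703. Its second probe set changed by -0.09 ± 0.13 and was not called. The iron-sulphur subunit Sdhb and the anchor Sdhd were not called against P19CL6 in either subline, with Sdhd changes of -0.32 ± 0.14 in both.

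Complex III, ubiquinol-cytochrome c reductase, had 2 lower members of 8 in CL6G36 and 5 lower in CL6G45, with none higher. Uqcrh read 9.42, 9.19, 9.63, 9.47 and 9.33 in P19CL6, 8.85, 8.79, 8.98, 8.87 and 8.70 in CL6G36 and 8.96, 9.19, 9.04, 8.86 and 9.29 in CL6G45. CL6G36 lay below all P19CL6 samples and CL6G45 overlapped them. It fell by 0.57 ± 0.11 in CL6G36 (adjusted p = 0.000385) and by 0.34 ± 0.11 in CL6G45 (adjusted p = 0.0321), and its probe set on MOE430B fell by 0.59 ± 0.12 and 0.44 ± 0.12. The CL6G45 call on MOE430A was lost under 7 of 21 alternatives, with adjusted p from 0.0138 to 0.520. Uqcr11, a small subunit, fell by 0.40 ± 0.07 in both, with adjusted p = 0.00013 and 0.000149. The small subunits Uqcr10, Uqcrq and Uqcrb fell in CL6G45 by 0.41, 0.26 and 0.16. Further probe sets measured on all arrays changed by -0.03 ± 0.14 for Uqcrq and 0.00 ± 0.09 for Uqcrb and were not called. For Uqcr10 they changed by -0.15 ± 0.11, not called, and -0.34 ± 0.11, called. Uqcrb lost its call under 11 of 21 alternatives, with adjusted p from 0.000981 to 0.527. None of the core proteins of complex III was called in either subline.

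Complex IV, cytochrome c oxidase, had 3 lower members of 17 in CL6G36 and 5 lower and 1 higher in CL6G45. The shares called were 17.6% and 35.3%, where 13.5% and 13.3% of all genes were called. Cox7a2, the ubiquitous form of subunit 7a, read 11.93, 11.82, 12.03, 12.02 and 12.03 in P19CL6, 11.64, 11.66, 11.56, 11.49 and 11.41 in CL6G36 and 11.60, 11.60, 11.48, 11.71 and 11.58 in CL6G45. Neither subline overlapped the parent. It fell by 0.42 ± 0.06 (adjusted p = 3.43e-06) and 0.37 ± 0.06 (adjusted p = 2.51e-05), and its second probe set fell by 0.56 and 0.45. Cox6b1, the ubiquitous form of subunit 6b, fell by 0.35 ± 0.05 (adjusted p = 1.26e-05) and 0.36 ± 0.05 (adjusted p = 1.36e-05). Cox6c fell by 0.29 and 0.31, while its second probe set changed by -0.10 ± 0.21 and 0.06 ± 0.21 and was not called. In CL6G45, Cox8a, the ubiquitous form of subunit 8, and Ndufa4, once counted to complex I, each fell by 0.26 as well. Cox4i1, the ubiquitous form of subunit 4, rose in CL6G45 by 0.25 ± 0.07 (adjusted p = 0.0127), with samples at 11.17, 11.14, 11.16, 11.17 and 11.17 against 10.81 to 10.96 in P19CL6.

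Complex V, ATP synthase, had 5 lower and 2 higher members of 17 in CL6G36 and 7 lower in CL6G45. The share called was 41.2% in both, where 13.5% and 13.3% of all genes were called. Subunit c, which forms the rotor ring, is made from 3 genes that encode the same mature protein. Of these, Atp5g3 read 11.92, 11.79, 12.05, 12.03 and 11.95 in P19CL6, 11.65, 11.62, 11.66, 11.57 and 11.55 in CL6G36 and 11.58, 11.57, 11.60, 11.63 and 11.58 in CL6G45. It fell by 0.34 ± 0.05 (adjusted p = 7.76e-06) and 0.36 ± 0.05 (adjusted p = 5.73e-06), with no overlap. Atp5g1 fell more, by 0.56 ± 0.13 (adjusted p = 0.00197) and 0.75 ± 0.13 (adjusted p = 9.11e-05), from 9.90, 9.75, 10.12, 9.97 and 9.92 to 9.17 to 9.61 and 9.01 to 9.34. For Atp5g2 the changes were 0.14 ± 0.07 and 0.12 ± 0.07, and neither was called. Subunits of the membrane part, Atp5j2, Atp5l and Atp5mpl, fell in both sublines by 0.33 to 0.53, and Atp5md and the stalk subunit Atp5j fell in CL6G45 by 0.40 and 0.24.

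In the catalytic head, 2 subunits rose in CL6G36 and the others, Atp5c1, Atp5d and Atp5e, changed by 0.04, 0.01 and -0.05 and were not called. Atp5b, the beta subunit, which holds the catalytic sites, read 11.42, 11.55, 11.62, 11.41 and 11.44 in P19CL6 and 11.77, 11.52, 11.77, 11.72 and 11.79 in CL6G36, a rise of 0.22 ± 0.05 (adjusted p = 0.00390). Only CL6G36 replicate 2 lay within the P19CL6 range. Atp5a1, the alpha subunit, rose by 0.42 ± 0.08 (adjusted p = 0.000384), from 11.46, 11.47, 11.50, 11.41 and 11.42 to 11.99, 11.93, 11.92, 11.70 and 11.84. Its other probe sets changed by 0.07 ± 0.06 and -0.32 ± 0.14 and were not called, so that the size of the rise is that of 1 probe set. Over the called genes, 13 of 15 further probe sets measured on all arrays had the sign of the one used in CL6G36 (6 of them called) and 14 of 16 in CL6G45 (8 called).

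**Figure D3:**
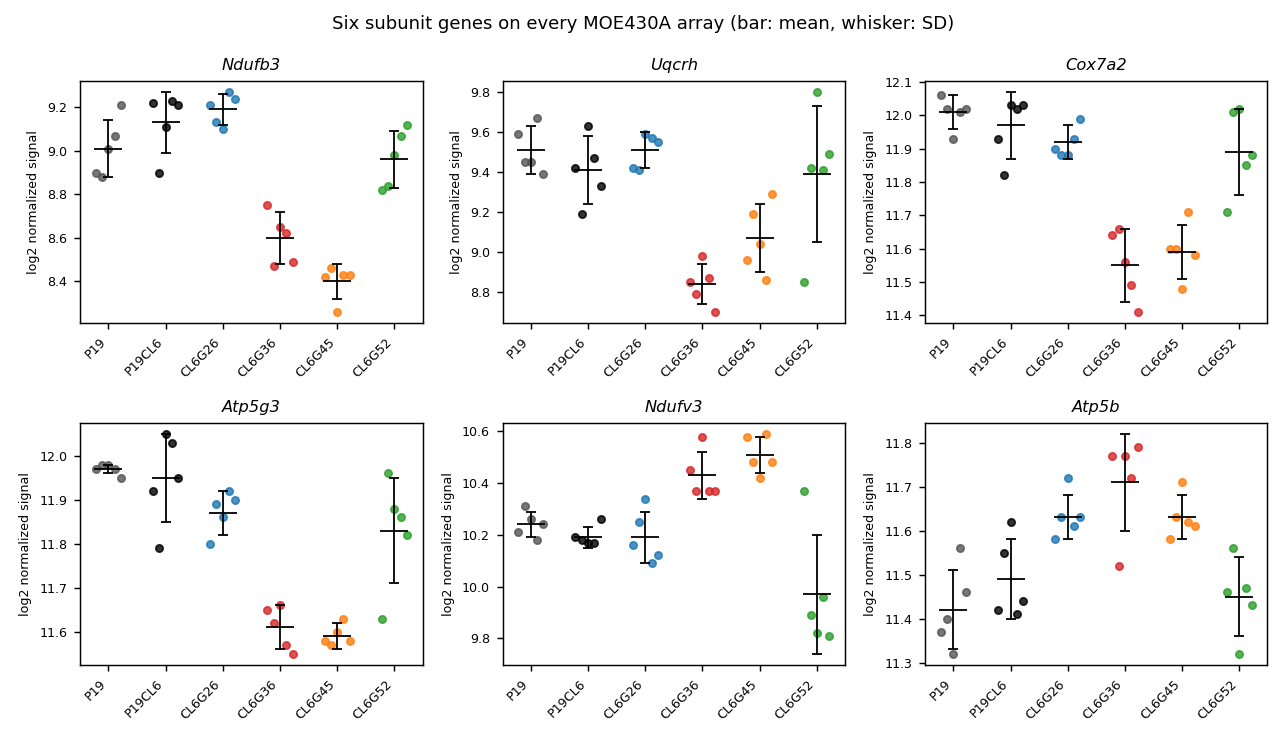
Log2 normalized signal of 6 subunit genes in all 30 samples; points are samples, bars means and whiskers SD (n = 5), on axes that differ between panels and do not start at 0. Ndufb3, Cox7a2 and Atp5g3 are lower in CL6G36 and CL6G45 than in every P19CL6 and CL6G26 sample, and Ndufv3 is higher there.

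Because promoters of such genes are known to be rich in sites for NRF1, ETS family factors (GABP), YY1 and Sp1, the promoters of members that moved together were searched for these letters. The RefSeq table (build GRCm38.p6) held 71 promoters, each of 250 bases before and 50 after a start, for 66 of the 81 genes. Matches to CCGGAAG (ETS), the palindromic consensus of NRF1, AAGATGGCG (YY1) and GGGCGG (Sp1) were counted on both strands, overlaps allowed. ETS letters were in 23.9% of the members' promoters and in 8.86% of all 32851 promoters, NRF1 letters in 22.5% and 4.60%, YY1 letters in 8.45% and 1.40%, and Sp1 letters in 40.8% and 35.7%. Of the genes that fell in CL6G36 or CL6G45, 17 had a promoter in the table and 8 of these held the ETS letters: Atp5j, Atp5l, Atp5md, Cox6b1, Cox8a, Ndufb7, Uqcr11 and Uqcrh. NRF1 letters were held by 2 of these 17. Of the 9 genes that rose, 7 had a promoter in the table, and of these 0 held ETS letters and 2 held NRF1 letters. Among 42 members with a promoter that were called in neither subline, 9 held ETS and 11 held NRF1 letters. A match describes letters in a window and no bound factor.

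The 120 bases before the start are shown for 4 genes that fell and 2 that rose, 5′ to 3′ on the strand of the gene, with ETS and NRF1 letters (either strand) in capitals. They lie at chr4:116075071-116075190 (minus strand, Uqcrh), chr10:80406822-80406941 (minus, Uqcr11), chr7:30626115-30626234 (minus, Cox6b1), chr8:83566638-83566757 (plus, Ndufb7), chr13:74350241-74350360 (minus, Sdha) and chr2:36049339-36049458 (minus, Ndufa8).
Uqcrh: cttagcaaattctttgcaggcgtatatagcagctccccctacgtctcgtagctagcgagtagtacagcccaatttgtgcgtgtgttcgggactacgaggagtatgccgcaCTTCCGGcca
Uqcr11: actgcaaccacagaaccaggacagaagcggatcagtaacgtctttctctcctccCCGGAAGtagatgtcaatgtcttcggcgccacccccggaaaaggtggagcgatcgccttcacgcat
Cox6b1: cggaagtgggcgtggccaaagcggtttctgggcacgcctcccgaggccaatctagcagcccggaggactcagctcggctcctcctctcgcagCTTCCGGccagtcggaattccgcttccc
Ndufb7: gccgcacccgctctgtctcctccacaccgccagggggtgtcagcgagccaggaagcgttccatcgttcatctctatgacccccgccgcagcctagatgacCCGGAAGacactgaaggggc
Sdha: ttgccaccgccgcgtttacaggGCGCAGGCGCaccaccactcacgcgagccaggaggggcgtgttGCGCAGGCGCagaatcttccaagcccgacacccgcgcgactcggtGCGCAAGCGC
Ndufa8: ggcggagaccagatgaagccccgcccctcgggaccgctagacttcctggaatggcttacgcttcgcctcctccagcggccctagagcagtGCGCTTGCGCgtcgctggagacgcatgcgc
The 4 genes that fell each show 1 ETS match, Sdha shows 3 NRF1 matches and Ndufa8 shows 1. All were taken from genes that held these letters, so the matches follow from the choice. They do not show how often such letters occur in genes that fell or rose.

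The 4 sublines were also compared with each other in a single F test, which does not use P19CL6. It called 38 of 79 members (48.1%), where 23.2% of all genes were called, and 42 without CL6G52 replicate 1, where 27.2% were. By complex these were 15 of 33 in complex I, 4 of 4 in complex II, 6 of 8 in complex III, 4 of 17 in complex IV and 9 of 17 in complex V. The smallest adjusted p-values belonged to Ndufb3 (1.43e-08, a span of 0.79 between the highest and lowest subline mean), Cox7a2 (3.21e-06, 0.37), Ndufv3 (4.71e-06, 0.54), Uqcr11 (6.17e-06, 0.46), Ndufa5 (1.14e-05, 0.83) and Atp5g1 (1.63e-05, 0.82). These 6 kept their call under every alternative tried.

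As comparisons added after the data were seen, CL6G36 was set against CL6G26 and CL6G45 against CL6G52, which share no samples. CL6G36 had 9 members higher and 18 lower than CL6G26, 27 of 79 (34.2%), where 14.1% of all genes were called (7.67% higher and 6.41% lower). CL6G45 had 6 higher and 17 lower than CL6G52, 23 of 79 (29.1%), where 11.1% of all genes were called (5.91% higher and 5.15% lower). Ndufb3 was lower by 0.60 ± 0.08 (adjusted p = 1.61e-06) in the first and 0.56 ± 0.08 (adjusted p = 2.27e-05) in the second, and Atp5g1 by 0.63 ± 0.13 (adjusted p = 0.000585) and 0.68 ± 0.13 (adjusted p = 0.000546). Cox7a2 was lower by 0.37 ± 0.06 and 0.30 ± 0.06, and Ndufv3 was higher by 0.24 ± 0.07 and 0.54 ± 0.07 (0.64 without CL6G52 replicate 1). Without that sample the changes of Ndufb3, Atp5g1 and Cox7a2 in the second comparison were -0.60, -0.76 and -0.35.

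Core subunits were 5 higher and 0 lower of 16 in CL6G36 against CL6G26, with a median of 0.09. This was 31.2% called, where 14.1% of all genes were. With the deposited scaling, whose median over all genes was -0.11 here, 1 of 16 had a positive change, where 12 had one before. The called core subunits were led by Ndufs1, an iron-sulphur subunit of the NADH-oxidising arm, at 0.40 ± 0.09 (adjusted p = 0.00154), and Sdhb at 0.20 ± 0.06 (adjusted p = 0.0143). The higher calls rested on single samples: the 9 became 2 without CL6G26 replicate 4, CL6G26 replicate 5 or CL6G36 replicate 3, with 16, 12 and 13 lower. With the deposited scaling no member was called higher in CL6G36 than in CL6G26 and 17 were lower, where 5.47% of all genes were called. Median scaling gave 1 higher and 22 lower, where 13.0% of all genes were called. For CL6G45 against CL6G52 it gave 3 higher and 14 lower, where 8.95% were. Without CL6G52 replicate 1 that second comparison called 31 members (7 higher and 24 lower), where 16.2% of all genes were called. Samples did not overlap for 22 members in the first comparison, where 13.1% of all genes were so separated, and for 12 in the second, where 6.70% were.

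CL6G26 and CL6G52 stood close to P19CL6. In CL6G26, 1 member of 79 (1.27%) was called, where 1.24% of all genes were: Ndufa8 read 9.36, 9.57, 9.48, 9.28 and 9.31 against 9.08, 9.03, 9.08, 9.11 and 9.02 in P19CL6, a rise of 0.33 ± 0.07 (adjusted p = 0.00292). All CL6G26 samples were above all P19CL6 samples, as were all CL6G36 samples at 9.46, 9.30, 9.32, 9.24 and 9.41, while CL6G45 and CL6G52 averaged 9.02 ± 0.10 and 9.11 ± 0.08 (SD, n = 5). The median change over the members was -0.01, as over all genes. Samples of CL6G26 and P19CL6 did not overlap for 4 members, where 4.15% of all genes were so separated.

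In CL6G52, 1 member (1.27%) was called, where 3.18% of all genes were (1.38% higher and 1.80% lower): Ndufs4, an accessory subunit of complex I, fell by 0.27 ± 0.07 (adjusted p = 0.0191). Its samples read 9.13, 8.85, 8.91, 8.95 and 8.89 against 9.19, 9.09, 9.23, 9.22 and 9.37, and only replicate 1, the sample that stood apart, reached into the P19CL6 range. Without that sample 4 members were called, 1 higher and 3 lower, where 4.89% of all genes were. The call of Ndufs4 was lost under 5 of 21 alternatives, with adjusted p from 0.00484 to 0.790. Median scaling gave 9 members lower in CL6G52, where 3.61% of all genes were called.

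Between P19CL6 and P19, 2 members of 79 (2.53%) were called, both higher in P19CL6, where 4.46% of all genes were called (2.57% higher and 1.89% lower). The median change was 0.05 over the members and 0.01 over all genes. The samples of both strains did not overlap for 0 members, where 2.23% of all genes were so separated. Cox7a2l, a relative of subunit 7a that joins complexes III and IV, read 8.83, 9.08, 8.91, 9.60 and 9.78 in P19 and 9.76, 9.79, 9.88, 9.91 and 9.88 in P19CL6. Ndufb2, an accessory subunit of the membrane arm of complex I, read 9.25, 9.01, 8.96, 9.99 and 9.89 in P19 and 9.87, 9.71, 9.89, 10.08 and 9.89 in P19CL6. For both genes P19 replicates 1 to 3 lay below every P19CL6 sample. Replicate 4 also lay below them for Cox7a2l, and replicate 5 lay within their range for both genes. The change was 0.60 ± 0.13 for Cox7a2l (adjusted p = 0.0122) and 0.47 ± 0.13 for Ndufb2 (adjusted p = 0.0349).

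These calls rest on the make-up of the P19 group. Without P19 replicates 4 and 5 the changes were 0.90 (adjusted p = 7.84e-08) and 0.82 (adjusted p = 4.29e-08), while over all alternatives the adjusted p reached 0.194 for Cox7a2l and 0.841 for Ndufb2. The count of members called was 21 without both samples (18 higher and 3 lower, where 19.6% of all genes were called). It was 14 without replicate 4 and 11 without replicate 5, where 11.1% and 11.4% of all genes were called. It was 0 without replicate 1, 2 or 3, where 0 of all genes tested were called either. Leaving out P19CL6 replicates 1, 3 or 4 left 1 call. The 3′ to 5′ signal ratio of the Gapdh control probe sets also separated these strains on MOE430A, at 0.908 to 0.954 in P19 and 0.835 to 0.887 in P19CL6. Its part in the result was not tested, and the Actb ratios overlapped, at 1.14 to 1.25 and 1.10 to 1.20.

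**Figure D4:**
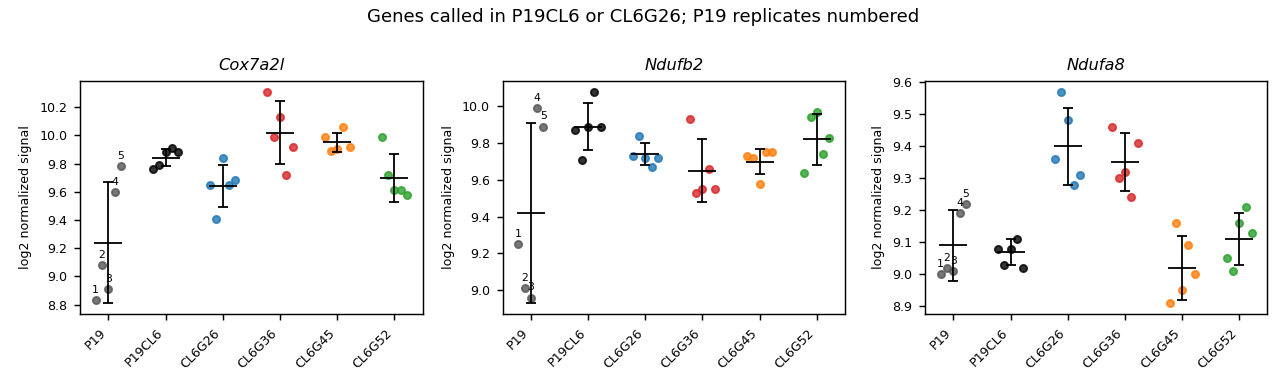
Log2 normalized signal of Cox7a2l, Ndufb2 and Ndufa8 in all 30 samples, with P19 replicates numbered; bars are means and whiskers SD (n = 5), and axes do not start at 0. P19 replicates 1 to 3 lie below all P19CL6 samples for Cox7a2l and Ndufb2, replicates 4 and 5 lie higher than these 3, and Ndufa8 is high in CL6G26 and CL6G36.

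The heart, muscle and lung isoforms of complex IV that were tested lay near the floor. Cox6a2, the heart and muscle form of subunit 6a, lay above it on 15 of 30 arrays, with means from 4.45 ± 0.17 in P19CL6 to 4.78 ± 0.36 in CL6G36 (SD, n = 5). Cox7a1, the heart and muscle form of subunit 7a, lay above it on 25, with means of 4.20 ± 0.82 in P19, 5.00 ± 0.14 in P19CL6, 4.87 ± 0.39 in CL6G26, 5.44 ± 0.18 in CL6G36, 5.34 ± 0.30 in CL6G45 and 4.74 ± 0.23 in CL6G52. Cox4i2, the lung form of subunit 4, lay above it on 27. None of the 3 was called in any comparison, the nearest being Cox7a1 in P19CL6 against P19 (0.80 ± 0.25, adjusted p = 0.0584).

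The testis forms Cox6b2 and Cox8c were above the floor on every array, with strain means of 5.32 to 5.77 and 6.96 to 7.18, and were not called either. The ubiquitous Cox6a1 stayed within 11.45 to 11.59 in all strain means. Ndufa4l2, a relative of Ndufa4 known for induction by hypoxia, read 6.96, 6.47, 6.28, 6.80 and 6.52 in CL6G45 and 6.91, 5.80, 3.45, 3.48 and 2.85 in CL6G52, where 3 samples lay under the floor and replicate 1 was as high as CL6G45. The difference of 2.11 ± 0.56 (adjusted p = 0.0452) was lost under 14 of 21 alternatives, with adjusted p from 0.00106 to 0.201, and was 2.71 (adjusted p = 0.00106) without CL6G52 replicate 1. The change in CL6G45 against P19CL6 was 1.48 ± 0.56 (adjusted p = 0.194).

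**Figure D5:**
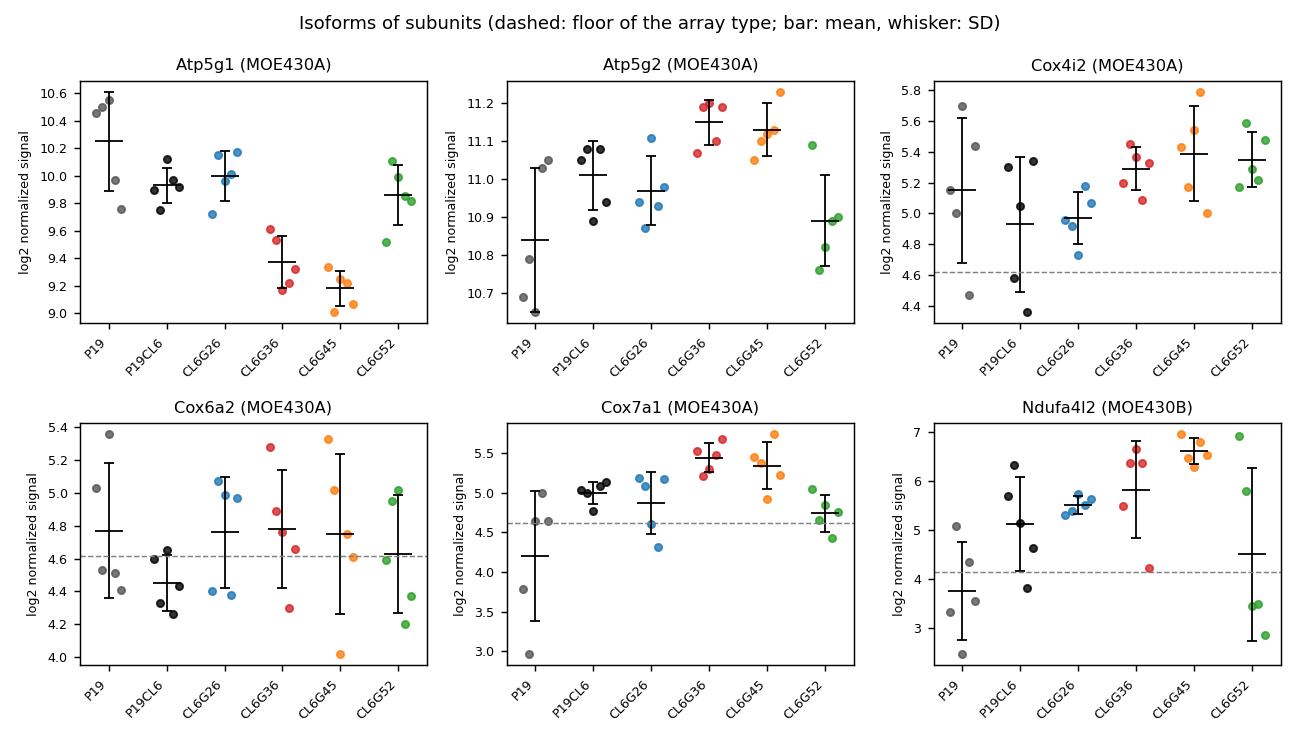
Log2 normalized signal of 6 isoform genes in all 30 samples; bars are means and whiskers SD (n = 5), dashed lines mark the floor where values come near it, and axes do not start at 0. Atp5g1 is low in CL6G36 and CL6G45 and Atp5g2 is not, Cox4i2, Cox6a2 and Cox7a1 scatter near the floor, and Ndufa4l2 spans over it in CL6G52.

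Other mitochondrial genes were counted beside the subunits. In these counts the share called is to be set against 13.5% of all genes in CL6G36 and 13.3% in CL6G45. Mitochondrial ribosomal proteins, which translate the subunits encoded in the organelle, were 5 higher and 19 lower of 76 in CL6G36 (31.6% called, median -0.12) and 1 higher and 22 lower in CL6G45 (30.3%, median -0.13), with Mrpl42 falling by 0.53 ± 0.09 and 0.57 ± 0.09. Factors that assemble the complexes were 1 higher and 10 lower of 44 in CL6G36 and 0 higher and 9 lower in CL6G45 (20.5% called there). Ndufaf4, a complex I assembly factor, fell by 0.80 ± 0.14 (adjusted p = 7.65e-05) and 0.79 ± 0.14 (adjusted p = 0.00012). Import machinery of the Timm and Tomm genes was 1 higher and 4 lower of 21 (23.8%) and 0 higher and 8 lower (38.1%).

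Among electron carriers and coenzyme Q synthesis genes, 1 rose and 1 fell of 19 in both sublines (10.5%), a share under that of all genes. Cycs, cytochrome c, fell by 0.61 ± 0.14 and 0.52 ± 0.14, and Etfdh, which feeds electrons from fatty acid oxidation to ubiquinone, rose by 0.71 ± 0.15 and 0.70 ± 0.15. Of 7 adenine nucleotide and phosphate carriers tested, 1 was called in both (14.3%, near the share of all genes), Slc25a4, a heart and muscle ADP/ATP carrier, which fell by 0.95 ± 0.11 in CL6G36 (adjusted p = 1.61e-07). In CL6G45 it fell by 1.04 ± 0.11 (adjusted p = 5.90e-08). It also fell in CL6G26, by 0.87 ± 0.11 (adjusted p = 4.14e-06). The 18 regulators of mitochondrial gene expression tested, which include Nrf1, Gabpa, Yy1 and Tfam, gave 0 calls in limma in both sublines, with 1 and 2 at an unadjusted p under 0.05. In CL6G36 against CL6G26, 1 was called higher and 1 lower (11.1%, where 14.1% of all genes were called). The F test across the sublines called 1 (5.56%, where 23.2% were). In P19CL6 against P19, 1 was called higher (5.56%, where 4.46% were).

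Citric acid cycle and pyruvate dehydrogenase genes were 3 higher and 1 lower of 16 in CL6G36 and 1 higher and 1 lower in CL6G45 (12.5%), the lower one in both being Mdh2, malate dehydrogenase (-0.32 ± 0.08 and -0.28 ± 0.08). Glycolysis genes were 10 higher and 0 lower of 18 in CL6G36 (55.6%, median 0.25) and 6 higher and 0 lower in CL6G45 (33.3%, median 0.19), where all genes had medians of 0.00. The counts of these other lists were not repeated under other scalings. In CL6G36 the calls of Slc2a3, Hk1 and Pfkm were lost under 2, 1 and 1 of 21 alternatives (adjusted p up to 0.658, 0.172 and 0.249). In CL6G45 those of Tpi1 and Pfkp were lost under 2 and 1 (up to 0.261 and 0.586), and Aldoc kept its call. With the cytosolic ribosomal proteins, a list added after the data were seen, 1 rose and 4 fell of 44 in CL6G36 (11.4%) and 2 rose and 2 fell in CL6G45 (9.09%).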

How the data were processed

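The authors deposited one normalized table of signal intensity per array type, and Affymetrix GCOS is named in the submitters' processing notes, its version and scaling target being not given in the sources used here. All deposited intensity values were quantile normalized within each array type over 30 arrays, then raised to at least 1 and log2 transformed (R 4.3.3, limma 3.58.1). The 64 control probe sets of each type were left out. Probe sets with several symbols or none were not read as genes. Strain means were fitted over all 30 arrays per type with lmFit and eBayes (trend), and p-values were adjusted by Benjamini-Hochberg over 15068 probe sets on MOE430A and 12131 on MOE430B. Probe sets marked _x_at were read only where a gene had no other. The script was tested on simulated MOE430A data, with known changes put into CL6G36 at probe sets drawn from all those tested. Against P19CL6 it called 54% of 100 log2 changes of 0.5 and 85% of 100 changes of 1. It also called 8 unchanged probe sets. A gene not called may therefore still have changed. Array number, 5 per strain, limits precision.

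The members and gene lists were chosen with earlier results of these data known. Named genes are up to 6 called members with the smallest adjusted p per direction and comparison, the tissue isoforms, the most and least variable gene of each complex, and up to 3 called genes of each other list. Atp5j2, Atp5l, Atp5mpl, Atp5md, Atp5j, Cox6c, Ndufb7, Ndufa12, Sdhc, Uqcrb, Atp5c1, Atp5d and Atp5e were named after their values were seen. Core subunits given without values are named only to define that group. No column of another series was present (0 unused). Replicate numbers did not pair the samples: same-numbered samples deviated with correlations from -0.154 to 0.112 on MOE430A. Alternatives changed scaling, filter, probe set, trend, block and samples.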

Additional observations from a re-analysis of the deposited data

Results flagged for a closer look

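Single samples stood far from the other 4 of their strain in 9 of 156 groups of 5 among the 26 named subunit genes examined, and in 2 of 48 groups of mean levels. Chance flags about 1 in 20 groups. The mean level of all members in CL6G36 had replicate 1 at 0.05 with the other samples from -0.06 to -0.05, and the mean level of the other subunits had it at 0.02 with the rest from -0.12 to -0.09. Atp5b had a low sample in CL6G36 at 11.52, Ndufb2 in CL6G45 at 9.58 and Ndufb3 in CL6G45 at 8.26. Ndufv1 had a high sample at 9.60 in CL6G26 and at 9.91 in CL6G36, replicate 3 in both. Ndufv3 was high at 10.26 in P19CL6 replicate 5 and at 10.37 in CL6G52 replicate 1, Sdhb was high at 10.29 in P19CL6 replicate 5, and Uqcrq was low at 9.89 in CL6G52 replicate 1.

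The sublines differed from each other in 38 of 79 members by the F test across them.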

How the results depend on the processing

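Median scaling, no filter, a strict filter, signals raised to the floor, MOE430B first, no trend, strains alone, a replicate block and the mean of a gene's probe sets were tried beside the deposited scaling and left-out samples. Of 1236 values of named genes under these alternatives, 1097 kept their direction and their side of the threshold, 133 kept only the direction and 6 changed sign. The deposited scaling cost most: it called 0 members in P19CL6 against P19, 0 in CL6G26, 3 in CL6G36, 2 in CL6G45 and 0 in CL6G52. It called 15 among the sublines, 17 in CL6G36 against CL6G26 and 2 in CL6G45 against CL6G52. In the same order it called 0.364%, 0.258%, 2.50%, 2.92%, 1.30%, 9.25%, 5.47% and 1.21% of all genes. It moved the median of all genes to 0.13, 0.12 and 0.11 in CL6G26, CL6G45 and CL6G52 against P19CL6 and to -0.11 in CL6G36 against CL6G26. There Sdhb (-0.06), Ndufv1 (-0.01), Ndufv3 (-0.04), Atp5a1 (-0.05) and Sdha (-0.02) changed sign, all above that median of -0.11. Sdha in CL6G36 was -0.32 with MOE430B first, from a probe set above the floor on 5 arrays.

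Median scaling called 9 members in CL6G52, where 3.61% of all genes were called. For P19CL6 against P19 the count was 1 with no filter, MOE430B first or no trend, where 2.26%, 3.69% and 2.84% of all genes were called. It was 0 with the strains alone (0.00% of all genes), 7 with the mean of probe sets (5.02%) and 21 without P19 replicates 4 and 5 (19.6%). CL6G26 had 2 with signals raised to the floor (1.32%) or no trend (1.12%), and CL6G52 had 0 with the strains alone (1.91%). The cause of these shifts was not tested.

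With the replicate number as a block, although numbers did not pair the samples, the counts were 2, 1, 20, 24, 1 and 37 in the order above. They were 23 and 23 in the added comparisons. Of all genes, 4.06%, 1.18%, 13.2%, 12.7%, 2.89% and 22.4% were called, and 13.5% and 10.7% in the added comparisons. Over 75 pairs of same-numbered samples, the partner was the closest of the other strain's 5 samples in 8 pairs on MOE430A and 17 on MOE430B. Single samples were left out only for comparisons that use their strain. Leaving out 1 sample gave 0 to 14 members in P19CL6 against P19, 1 to 2 in CL6G26 (2 without P19CL6 replicate 5), 17 to 23 in CL6G36, 17 to 24 in CL6G45, 0 to 4 in CL6G52 (0 without P19CL6 replicate 5 or CL6G52 replicate 2 or 5, 2 without P19CL6 replicate 2, 4 without CL6G52 replicate 1), 35 to 42 among the sublines, 14 to 26 in CL6G36 against CL6G26 (14 without CL6G26 replicate 5, 15 without CL6G36 replicate 3) and 18 to 31 in CL6G45 against CL6G52. Signal near the floor limits what can be said of Cox4i2, Cox6a2, Cox7a1, Cox7c, Ndufa4l2 and Ndufb4.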

Other observations

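Some subunits hardly moved between strains. Atp5h, a peripheral stalk subunit of ATP synthase, had strain means of 10.40 to 10.53, while Atp5g1 ran from 9.18 in CL6G45 to 10.25 in P19. Ndufa7 of complex I had strain means of 10.31 to 10.39, while Ndufb3 ran from 8.40 in CL6G45 to 9.19 in CL6G26.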
